A study of Mus musculus with 6 samples.

Results

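The receptors of the interleukin-1 (IL-1) family carry alarm and differentiation signals into lymphocytes, and 6 of them were followed here in murine splenic CD8+ T cells exposed to sphingosine-1-phosphate (S1P), the lysophospholipid ligand of S1PR1. The 6 genes were Il1rl1, Il18r1, Il18rap, Il1rap, Il1r1 and Il1r2, out of 56941 identifiers in the count table. They were chosen by membership of the receptor family and with the S1P contrast of these same libraries known, so their levels and fold changes are given as a description, with no p-value. Where a receptor is said to have been called, this places it in the fit over all genes and is no test of the receptor. Of the 6 receptors, 5 passed the filter on low counts, as did 13299 genes in all, and Il1r1 did not.

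According to the labels, both groups were naive CD8+ T cells purified from B6 spleens and activated with plate-bound anti-CD3 and anti-CD28 plus recombinant IL-2 (100 U/ml) over 3 days. At 24 h the cultures received either vehicle (3 libraries) or 5 µM S1P (3 libraries). The libraries are labelled as biological replicates, and no source used here says whether each came from a separate animal. No genetic change was introduced in either group, and the data come from a culture model at 1 time point and 1 dose.

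Most receptors of this family work as pairs. A ligand-binding chain captures its cytokine, an accessory chain joins it, and their intracellular TIR domains recruit MyD88, IRAK kinases and TRAF6. ST2, the product of Il1rl1, binds IL-33 and signals with the accessory chain encoded by Il1rap, which also serves the IL-1 receptor Il1r1. Il18r1 binds IL-18 and signals with Il18rap, a pair known for driving interferon-γ production by effector CD8+ T cells. Il1r2 is a decoy, since it binds IL-1 but lacks the TIR domain. ST2 is best known on type 2 helper cells, regulatory T cells, mast cells and innate lymphoid cells, and is also induced on effector CD8+ T cells.

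Total counts ran from 13636095 to 17089831 in the vehicle libraries and from 12048880 to 17384084 in the S1P libraries. S1P replicate 2 stood apart, with 7.80% of counts from mitochondrial genes against 4.10 to 4.93% in the other 5 libraries, and values without it are given where they differ most. The study's general culture method names either purified naive T cells or whole splenocytes as the starting material, and the markers only partly bore out a purified CD8+ population. With levels in CPM (counts scaled by TMM to a common library size), Cd8a averaged 222 ± 24.9 CPM (SD, n = 3) in vehicle, but Cd4 averaged 203 ± 18.4 CPM and the summed level of 6 B cell markers reached 599 to 750 CPM. The summed 6 B cell markers stood at 598 to 688 CPM after S1P. By contrast, the summed levels of the mast cell and basophil list (8 genes), which would be another source of ST2, were 5.65 to 6.24 CPM in vehicle and 6.02 to 6.85 CPM after S1P, and 2 of those 8 genes could be tested, with neither called. The 6 NK and innate lymphoid markers summed to 4.09 to 4.18 CPM in vehicle and 3.30 to 6.49 CPM after S1P. The 7 monocyte and macrophage markers summed to 3.59 to 4.56 CPM in vehicle and 2.98 to 5.70 CPM after S1P, with C1qa at 0 in every library. The 7 neutrophil markers, a cell type known for Il1r2, summed to at most 0.157 CPM in any library, with S100a8, S100a9 and Retnlg at 0 throughout, where 3 counts correspond to 0.168 to 0.262 CPM. Which cells of the cultures held the Il1rl1 or Il1r2 transcripts was not tested. The 5 stromal markers summed to 0.513 to 1.03 CPM in vehicle and 1.52 to 2.12 CPM after S1P. In bulk RNA, fewer cells of a type and less RNA per cell cannot be told apart, which applies to every value below.

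Of the 6 receptor genes, 5 lie with Il1rl2 head to tail on the plus strand of mouse chromosome 1 (GRCm39). In order they are Il1r2 (chr1:40113239-40164391), Il1r1 (chr1:40264174-40356417), Il1rl2 (chr1:40363708-40406734), Il1rl1 (chr1:40468730-40504575), Il18r1 (chr1:40504712-40540014) and Il18rap (chr1:40554522-40590865), a stretch of 478 kb. Il1rl1 ends 136 bases before Il18r1 begins, and 14507 bases separate Il18r1 from Il18rap. Il1rap lies apart, on chr16:26400350-26548880, plus strand. No exon base of the 5 members on chromosome 1 is shared with another annotated gene, whereas 9.325% of the exon bases of Il1rap lie under Gm20319 on the opposite strand. The libraries were strand-specific, but the strand setting of the counting is not given in the sources used here.

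Il1rl1 is annotated with 5 transcripts, all protein-coding, from 4 start sites. The most distal start belongs to Il1rl1-205, at base 40468730. The longest transcript, of 5302 bases and 11 exons, and Il1rl1-203, with 8 exons and a 3′ end at 40487308 instead of 40504575, share a start at 40478787. ST2 is known as a membrane receptor and as a soluble decoy made from a shorter transcript, and counts summed per gene cannot separate them. The 250 bases upstream of both starts are shown because they belong to the receptor gene with the lowest S1P to vehicle ratio, and the windows of Il18rap and Il1r2 because these were the other receptors whose groups did not overlap. All 4 were read from GRCm39 on the plus strand and end on the base before the start annotated in GENCODE vM39, and none of them covers an annotated exon. Capitals mark GATA motifs, that is AGATA or else TGATA followed by A or G, on either strand.
Il1rl1-205, chr1:40468480-40468729: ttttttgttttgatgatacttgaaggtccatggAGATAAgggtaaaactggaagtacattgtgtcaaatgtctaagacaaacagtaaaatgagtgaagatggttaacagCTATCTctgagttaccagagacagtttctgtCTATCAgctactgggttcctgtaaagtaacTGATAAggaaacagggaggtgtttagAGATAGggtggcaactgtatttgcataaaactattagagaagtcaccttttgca
Il1rl1-203 and the longest Il1rl1 transcript, chr1:40478537-40478786: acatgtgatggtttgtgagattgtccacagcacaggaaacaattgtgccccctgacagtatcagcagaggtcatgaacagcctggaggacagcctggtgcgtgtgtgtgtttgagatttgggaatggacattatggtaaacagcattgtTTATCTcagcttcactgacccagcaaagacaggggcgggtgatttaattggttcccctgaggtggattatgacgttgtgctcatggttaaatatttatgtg
Il18rap-201, chr1:40554272-40554521: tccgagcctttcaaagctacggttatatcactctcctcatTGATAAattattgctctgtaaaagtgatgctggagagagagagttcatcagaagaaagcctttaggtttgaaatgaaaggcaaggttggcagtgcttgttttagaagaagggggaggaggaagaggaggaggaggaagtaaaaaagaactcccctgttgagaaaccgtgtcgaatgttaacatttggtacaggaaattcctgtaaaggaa
Il1r2-201, chr1:40123608-40123857: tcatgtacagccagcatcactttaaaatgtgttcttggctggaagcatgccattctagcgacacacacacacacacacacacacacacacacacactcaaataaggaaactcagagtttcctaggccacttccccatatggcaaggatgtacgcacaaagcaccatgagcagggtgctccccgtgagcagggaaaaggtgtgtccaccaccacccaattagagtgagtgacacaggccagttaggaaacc

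The distal Il1rl1 window held 5 GATA matches, the proximal one 1, the Il18rap window 1 and the Il1r2-201 window 0. The windows of the other 2 Il1rl1 starts, Il1rl1-204 and Il1rl1-201, held 0. Among 21770 promoter windows of the same length, 1 per gene, 26.2% held at least 1 GATA match and 20 (0.0919%) held 5 or more. The distal window is the richest of 4 for its gene and was singled out after the matches were seen, so these shares are no rate for a window picked in that way. The other motifs searched on both strands were AP-1 (TGANTCA, in 6.17% of windows), T-box (TCACACC, 3.23%) and STAT (TTCNNNGAA, 7.70%), with palindromic matches counted once, and none of the 4 printed windows held any of them. At starts not printed, 1 GATA match lay upstream of Il1r2-206 and Il1r2-207, whose windows overlap, and STAT matches lay upstream of Il18r1 and Il1r1. A match is a run of letters and was not tested as a binding site.

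ST2 transcript was at a small remainder of its vehicle level after S1P. Il1rl1 (ENSMUSG00000026069) had 100, 74 and 81 counts in the vehicle libraries and 7, 17 and 9 counts in the S1P libraries. On the CPM scale these were 5.77, 5.43 and 5.21 in vehicle and 0.394, 1.49 and 0.707 after S1P. Every S1P library lay below every vehicle library, and the highest of the S1P libraries was replicate 2. The log2 fold change was -2.76 ± 0.32 (SE; edgeR quasi-likelihood, n = 3 per group), or 6.77-fold lower after S1P. It was the lowest of all 13299 tested genes, a place partly set by the filter on low counts, since all 3 vehicle libraries had at least 10 counts but only 1 of the 3 S1P libraries did. Without S1P replicate 2 it was -3.36, and without S1P replicate 1 it was -2.33. In vehicle the 3 libraries varied by 5.13% (CV), less than the 10.8% that counting alone would give at this depth, while after S1P they varied by 65.5% against 30.2% from counting.

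The IL-18 receptor chains differed less between the groups. Il18rap (ENSMUSG00000026068), the accessory chain, had 372, 357 and 356 counts in vehicle and 284, 175 and 210 after S1P. In CPM it stood at 21.4, 26.2 and 22.9 in vehicle and at 15.98, 15.4 and 16.5 after S1P. The groups did not overlap, and the log2 fold change of -0.56 ± 0.10 (SE) corresponds to a level 1.47-fold lower after S1P. Il18r1 (ENSMUSG00000026070), the ligand-binding chain, had 290, 247 and 241 counts in vehicle and 214, 206 and 174 after S1P. Its CPM were 16.7, 18.1 and 15.5 in vehicle and 12.04, 18.1 and 13.7 after S1P. S1P replicates 1 and 3 lay below all vehicle libraries, and S1P replicate 2 lay among them. The log2 fold change was -0.22 ± 0.14, and without S1P replicate 2 it was -0.39.

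The shared accessory chain stayed close to its vehicle level. Il1rap (ENSMUSG00000022514) averaged 15.7 ± 1.04 CPM in vehicle and 14.8 ± 0.584 CPM after S1P (SD, n = 3 each). The libraries of both groups overlapped, and the log2 fold change was -0.09 ± 0.10. Over the fits that left out 1 library it ran from -0.14 to -0.06.

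Among the IL-1 binding receptors, the decoy was higher after S1P and the signaling receptor was near the limit of detection. Il1r2 (ENSMUSG00000026073) had 10, 9 and 6 counts in vehicle and 35, 20 and 18 after S1P. These were 0.577, 0.660 and 0.386 CPM in vehicle and 1.97, 1.76 and 1.41 CPM after S1P. Every S1P library exceeded every vehicle library, and the log2 fold change was 1.67 ± 0.32 (3.18-fold higher). Il1r2 passed the filter on low counts through the S1P group, since 1 of the 3 vehicle libraries had 10 counts and the others fewer, so a gene with its vehicle level in both groups would not have been tested. Il1r1 (ENSMUSG00000026072), the receptor through which IL-1 signals, had 2, 6 and 4 counts in vehicle and 5, 1 and 8 after S1P. It was too low to test, and a difference was not detectable at this depth.

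**Figure D1:**
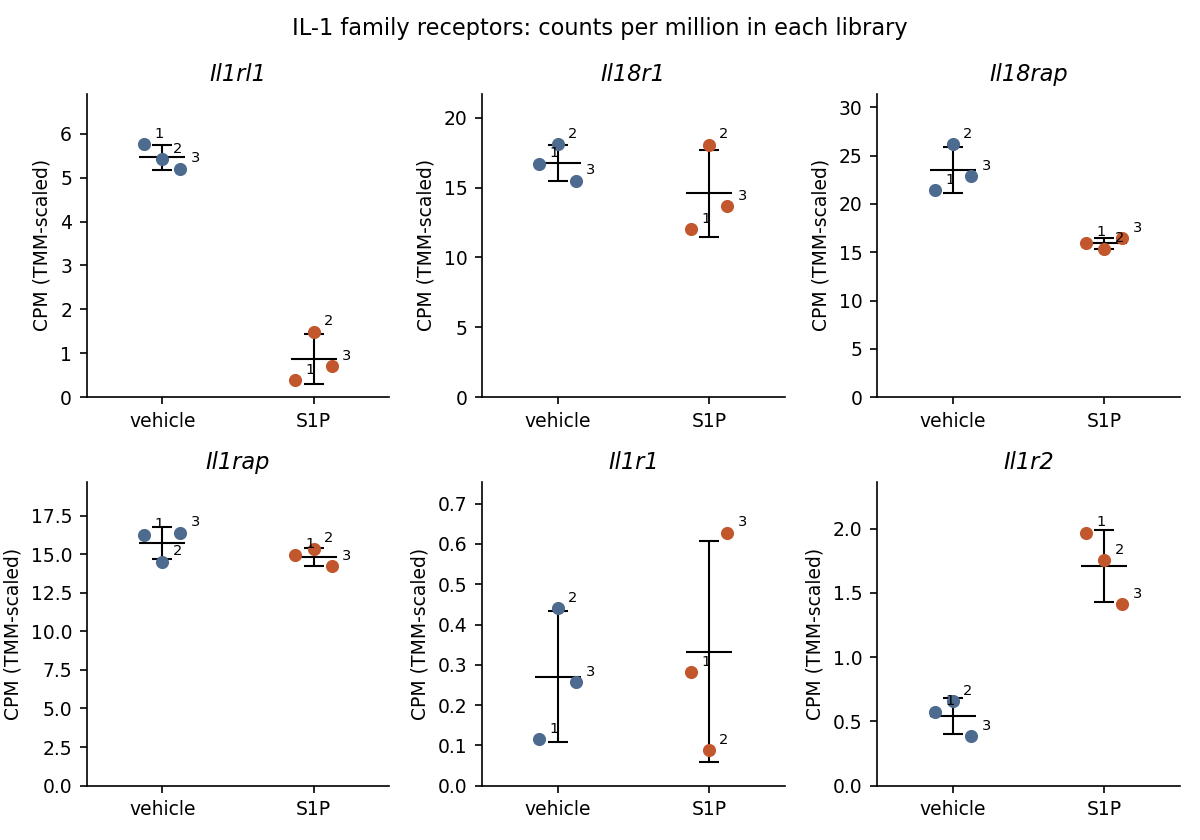
TMM-scaled CPM (linear axes from 0) of the 6 receptors in each vehicle and S1P library; points are libraries labelled by replicate number, and bars give the mean and SD. Il1rl1, Il18rap and Il1r2 separate the groups, while Il18r1, Il1rap and Il1r1 overlap.

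A gene was called where its edgeR adjusted p was no greater than 0.05 and its change was 0.3 or more, in either direction, on the log2 scale. By this mark 1 of the 5 receptors that passed the filter was called higher (Il1r2) and 2 lower (Il1rl1 and Il18rap), and 3 of the 6 had groups that did not overlap. Over all tested genes, 23.1% were called, 12.7% higher and 10.4% lower, and 45.6% had groups that did not overlap. Because the receptors were chosen with this contrast known, and Il1rl1 and Il1r2 passed the filter mainly through the group where they were high, nothing is read from their share. The tested genes as a whole had a median log2 fold change of 0.01.

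Compared per kilobase of merged exons, the IL-18 receptor chains were the highest of the 6. In vehicle, the levels were 3.48 ± 0.360 CPM per kb for Il18rap, 3.40 ± 0.266 for Il18r1, 1.03 ± 0.0683 for Il1rap, 0.793 ± 0.0407 for Il1rl1, 0.214 ± 0.0558 for Il1r2 and 0.0397 for Il1r1. Il18rap and Il18r1 did not differ beyond their spread, and each other neighbour in this order was apart in all 3 libraries. After S1P the levels were 2.96 ± 0.634 CPM per kb for Il18r1, 2.36 ± 0.0838 for Il18rap, 0.971 ± 0.0382 for Il1rap, 0.679 ± 0.111 for Il1r2, 0.125 ± 0.0821 for Il1rl1 and 0.0488 for Il1r1. Il1r2 and Il1rl1 had changed places in each S1P library, while Il1rl1 and Il1r1 overlapped and Il18r1 and Il18rap lay within the spread of Il18r1. The order of the means was the same when each level was divided by the longest transcript instead.

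**Figure D2:**
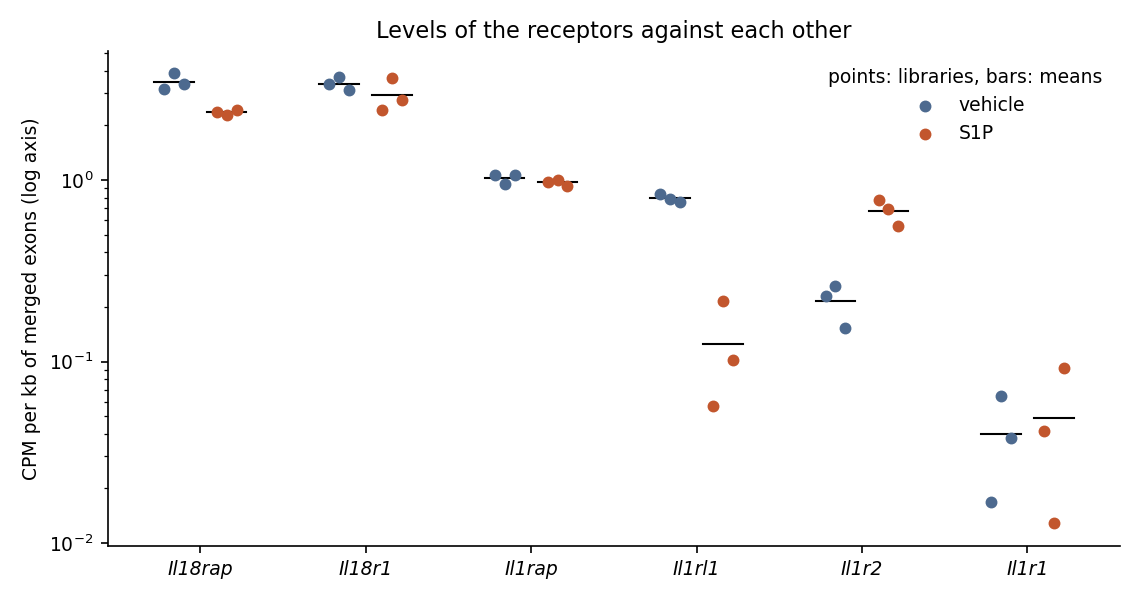
CPM per kb of merged exon length on a log axis for the 6 receptors, ordered by the vehicle mean; points are libraries and bars are means of 3. Il1rl1 drops from 0.793 to 0.125 CPM per kb and Il1r2 climbs from 0.214 to 0.679.

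Ratios within a library show the shift in the receptor mix. Il1rl1 per Il1rap, the ST2 chain over its partner, was 0.786, 0.828 and 0.704 in vehicle and 0.0583, 0.215 and 0.110 after S1P. Il1rl1 made up 8.19 to 9.60% of the summed level of the 6 receptors in vehicle and 0.857 to 2.75% after S1P, and Il1r2 went from 1.79 to 2.72% up to 8.12 to 11.7%. Il18rap over Il18r1 was 0.936, 1.06 and 1.08 in vehicle and 0.969, 0.620 and 0.881 after S1P, and the groups overlapped, with S1P replicate 2 the lowest. The 6 receptors summed to between 8.55 and 9.62 CPM per kb in vehicle and between 6.67 and 7.87 after S1P.

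The CD8 coreceptor itself moved in this contrast. Cd8a fell from 222 ± 24.9 to 139 ± 6.59 CPM (log2 fold change -0.67 ± 0.08, edgeR adjusted p = 0.000243) and Cd8b1 fell by 0.55 on the log2 scale (adjusted p = 0.00767). Of the other CD8+ T cell identity genes, Cd2 rose by 0.33 and Cd3d, Cd3e, Cd3g and Cd5 were not called. Cd4 itself had a log2 fold change of 0.10 and was not called, while 2 of 3 CD4 markers, Zbtb7b (0.37) and Cd40lg (0.50), and 3 of 5 regulatory T cell markers, Ctla4 (0.94), Ikzf2 (0.49) and Tnfrsf18 (0.48), were called higher, beside 12.7% of all tested genes. Il2ra (0.23) and Foxp3, the other 2 regulatory T cell markers, were not called. Foxp3 stood at 7.78 to 8.62 CPM in vehicle and 6.86 to 10.97 CPM after S1P. Of the 6 B cell markers, Ms4a1 fell by 0.39 and Cd22 by 0.44 on the log2 scale, and the others were not called. Leaving out 1 library, the calls of Cd2 (without vehicle replicate 1 or S1P replicate 2), Cd40lg (without vehicle replicate 2 or S1P replicate 3), Tnfrsf18 (without vehicle or S1P replicate 3) and Ms4a1 (without vehicle replicate 1 or 3) were each lost in 2 of 6 fits. The part of these genes in the receptor values was not tested. The following ratios to Cd8a are a description and cannot show cell content. Cd8a itself was lower after S1P, which raises every such ratio in that group. Per 100 CPM of Cd8a, Il1rl1 was at 2.48 ± 0.307 in vehicle and 0.634 ± 0.445 after S1P, and Il1r2 at 0.242 ± 0.0494 and 1.23 ± 0.207 (SD, n = 3 each). Il18rap was at 10.6 ± 0.376 and 11.4 ± 0.296, and Il18r1 at 7.58 ± 0.424 and 10.6 ± 2.799. Relative to Cd8a, then, Il1rl1 was lower in every S1P library than in any vehicle library, while Il18rap (11.1 to 11.6 after S1P, 10.3 to 11.03 in vehicle) and Il18r1 (8.36 to 13.7 after S1P, 7.23 to 8.05 in vehicle) were higher in every S1P library, the opposite direction to their CPM means.

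Most protein-coding neighbours of the cluster had at most 11 counts in any library, and those that could be tested were not called. Of the 8 other protein-coding genes within 500 kb (Rnf149, Creg2, Rfx8, Map4k4, Slc9a4, Slc9a2, Mfsd9 and Tmem182), 2 were tested, Rnf149 with a log2 fold change of 0.02 ± 0.10 and Map4k4 with 0.15 ± 0.09. Il1rl2, the IL-36 receptor between Il1r1 and Il1rl1, stood at 6.45 ± 0.572 CPM in vehicle and 6.92 ± 0.492 after S1P, with a log2 fold change of 0.10 (adjusted p = 0.646).

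**Figure D3:**
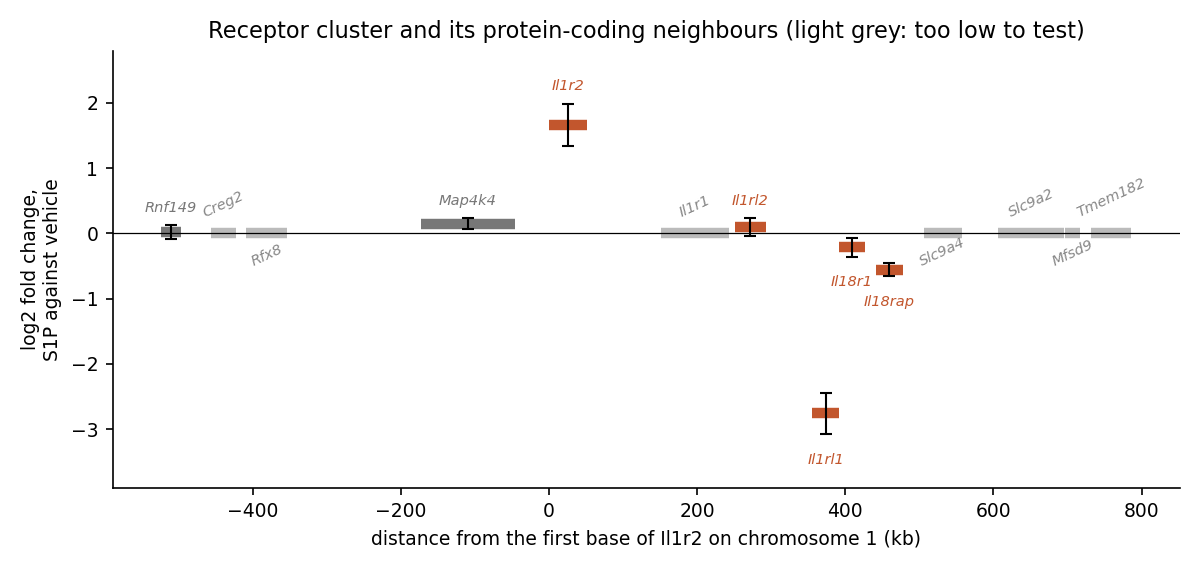
log2 fold change (S1P against vehicle; black bars SE) of the tested genes of the chromosome 1 receptor cluster (orange) and its protein-coding neighbours (dark grey), drawn to scale against the distance in kb from the first base of Il1r2; light grey genes on the zero line were too low to test. Il1rl1, at -2.76, sits between Il1rl2 at 0.10 and Il18r1 at -0.22.

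The genes whose log2 CPM ran most like each receptor over the 6 libraries were looked up among 11069 genes of mean log2 CPM of at least 1. The points share the 2 treatment groups, so a high Pearson r is common here and is given as a description. For Il1rl1 these were Otud6b (r = 1.000), Carnmt1 (0.998), Zmpste24 (0.998), Kpna4 (0.997) and Lbhd1 (0.995), whose own log2 fold changes were between -0.57 and -0.10. For Il18rap they were Nln (0.997), Orai2 (0.995), Lpar2 (0.994), Cd8a (0.994) and Ccne1 (0.993). For Il1r2 they were Rps6ka5 (0.999), Crybg1, Kdm3a (both 0.998), Abhd18 and Arhgap12 (both 0.997). Il18r1 ran closest to Obi1 (0.993), Sbno1, Slc4a1ap, Polr3c and Cops4 (0.973), and Il1rap to Sfmbt1 (0.984), H2-Ab1, Cul4a, Nr1d2 and Uros (0.966).

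Around the receptors, 68 genes in 6 lists were examined, of which 50 could be tested. Of these, 8 were called higher and 9 lower, or 34.0% of those tested beside 23.1% of all genes, with a median log2 fold change of -0.0046.

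Of the 4 other receptors of the family, Il1rl2 and Sigirr could be tested and neither was called. Sigirr, an inhibitory member that restrains IL-1 and IL-33 signaling, was the most abundant receptor of the family at 10.7 CPM per kb in vehicle and 10.8 after S1P (log2 fold change 0.01, adjusted p = 0.942). Il1rapl1 and Il1rapl2, known from neurons, were too low to test.

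The ligands were scarcely transcribed in these cultures. Of 11 ligands and soluble inhibitors, only Il18 and Il18bp passed the filter. Il18bp, which neutralizes IL-18, stood at 8.88, 7.48 and 7.39 CPM in vehicle and 5.68, 5.53 and 5.10 CPM after S1P, with every S1P library lower (log2 fold change -0.54 ± 0.15, edgeR adjusted p = 0.0172). That call was lost without vehicle replicate 1 and without S1P replicate 3. Il18 stood at 0.593 ± 0.235 CPM in vehicle and 1.04 ± 0.469 after S1P (adjusted p = 0.206). Il33, the ST2 ligand, had 1 count over all 6 libraries. Il1rn, the IL-1 receptor antagonist, had 2, 1 and 3 counts in vehicle and 7, 8 and 10 after S1P and did not pass the filter on low counts. Il36a, Il36b and Il1f10 had no count in any library.

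Of 5 genes that process or release these cytokines, 4 were tested. Casp4, the inflammatory caspase that senses lipopolysaccharide, rose by 0.41 on the log2 scale (adjusted p = 0.0183), and Pycard, the inflammasome adaptor, fell by 0.42 (adjusted p = 0.0214). Without 1 library the Casp4 call was lost in 3 of 6 fits (without vehicle replicate 1, vehicle replicate 2 or S1P replicate 2), and the Pycard call in 2 (without vehicle replicate 1 or 3). Gsdmd, the pore-forming gasdermin, and Casp1, which cleaves IL-1β and IL-18, had log2 fold changes of -0.15 and -0.08 and were not called.

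In the cascade from MyD88 to TAK1, 2 of 16 tested genes rose and 1 fell, with a median of -0.09. This is 18.8% of the tested genes of the list, beside 23.1% of all genes, and it depends on the fold threshold: with the adjusted p alone, 4 were higher and 4 lower, beside 1949 higher and 1839 lower of all 13299. Of the 16, 12 had groups that did not overlap, beside 45.6% of all genes, and whether the list differs from other genes was not tested. Myd88, the adaptor shared by all signaling receptors of the family, was at 58.6, 58.8 and 59.0 CPM in vehicle and 45.7, 34.9 and 49.0 CPM after S1P, lower in every S1P library (log2 fold change -0.44 ± 0.11, adjusted p = 0.0102). Irak3, which encodes the inhibitory kinase IRAK-M, stood at 5.36, 4.40 and 2.96 CPM in vehicle and 8.44, 10.0 and 7.69 CPM after S1P, higher in every S1P library (1.03 ± 0.20, adjusted p = 0.0036). Tab2, an adaptor of TAK1, rose by 0.31 (adjusted p = 0.0218), a call lost in 4 of the 6 fits that left out 1 library (each vehicle replicate, and S1P replicate 2) and with total count scaling or no filter. Map3k7, which encodes TAK1, and Traf6, the ubiquitin ligase upstream of it, were the most abundant uncalled members, at log2 fold changes of -0.25 (adjusted p = 0.0145) and 0.24 (adjusted p = 0.0281), under the fold threshold.

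Among 13 tested factors known to act on Il1rl1 or Il18r1, 3 rose and 2 fell, with a median of 0.14. That is 38.5% of the tested genes of this list called, beside 23.1% of all tested genes, and whether the list differs from other genes was not tested. Without S1P replicate 2, 5 were called higher and 1 lower, beside 1588 higher and 1252 lower of all 13657 genes tested in that fit. Upper-quartile scaling gave the same list counts, beside 1838 higher and 1206 lower of all 13299. With the adjusted p alone, 6 were higher and 2 lower, beside 1949 higher and 1839 lower of all 13299. Gata3, which drives ST2 expression in type 2 helper cells, was at 20.1, 23.5 and 18.5 CPM in vehicle and 32.8, 32.3 and 31.1 CPM after S1P. Every S1P library was higher (0.63 ± 0.10, adjusted p = 0.000864). Eomes, the T-box factor of effector and memory CD8+ T cells, was at 62.0, 66.9 and 66.1 CPM in vehicle and 31.3, 42.1 and 34.4 CPM after S1P, lower in every S1P library (-0.86 ± 0.10, adjusted p = 0.000162). Runx3, a CD8 lineage factor, rose by 0.54 (adjusted p = 0.0018), and Il12rb2, a chain of the IL-12 receptor, by 0.73 (adjusted p = 0.00668). Its partner Il12rb1 fell by 0.30 (adjusted p = 0.0148), a call at the edge of the fold threshold that was lost in 4 of the 6 fits that left out 1 library (without vehicle replicate 1 or 3, or S1P replicate 2 or 3) and with upper-quartile scaling. Irf4 and Stat6, the most abundant uncalled genes of this list, had log2 fold changes of 0.27 and 0.14. Irf4 (edgeR adjusted p = 0.0156) lay under the fold threshold and was called without vehicle replicate 1 and without S1P replicate 2.

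Of 13 tested genes known to be induced through IL-18R or ST2 in lymphocytes, 4 fell and 2 rose, with a median of -0.10. The share called was 46.2%, beside 23.1% of all tested genes (10.4% lower and 12.7% higher), and this difference was not tested either. The counts moved with the choice of libraries. Without S1P replicate 1, 4 were called lower and 4 higher, beside 1492 lower and 1736 higher of all 13409 genes tested in that fit. Without vehicle replicate 2, 6 were called lower and 2 higher, beside 1145 lower and 1322 higher of 13755. The chemokine genes Xcl1 (-1.76 ± 0.16, adjusted p = 4.24e-05), Ccl3 (-1.21 ± 0.10, adjusted p = 2.1e-05) and Ccl4 (-1.05 ± 0.09, adjusted p = 3.62e-05) fell. Ifng, the main product of IL-18 signaling in CD8+ T cells, went from 199, 219 and 212 CPM in vehicle to 135, 169 and 143 CPM after S1P (-0.50 ± 0.09, adjusted p = 0.00162), with every S1P library lower. Tnfaip3, which encodes the NF-κB inhibitor A20, rose by 0.80 (adjusted p = 4.82e-05), and Nfkbiz, a nuclear cofactor of NF-κB, by 0.51 (adjusted p = 0.00216). Gzmb, the cytotoxic protease granzyme B, at 2251 ± 338 CPM in vehicle and 2094 ± 73.1 CPM after S1P, and Nfkbia were not called. These genes also respond to other receptors, and no receptor of the IL-1 family was stimulated with added ligand or blocked in these cultures.

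**Figure D4:**
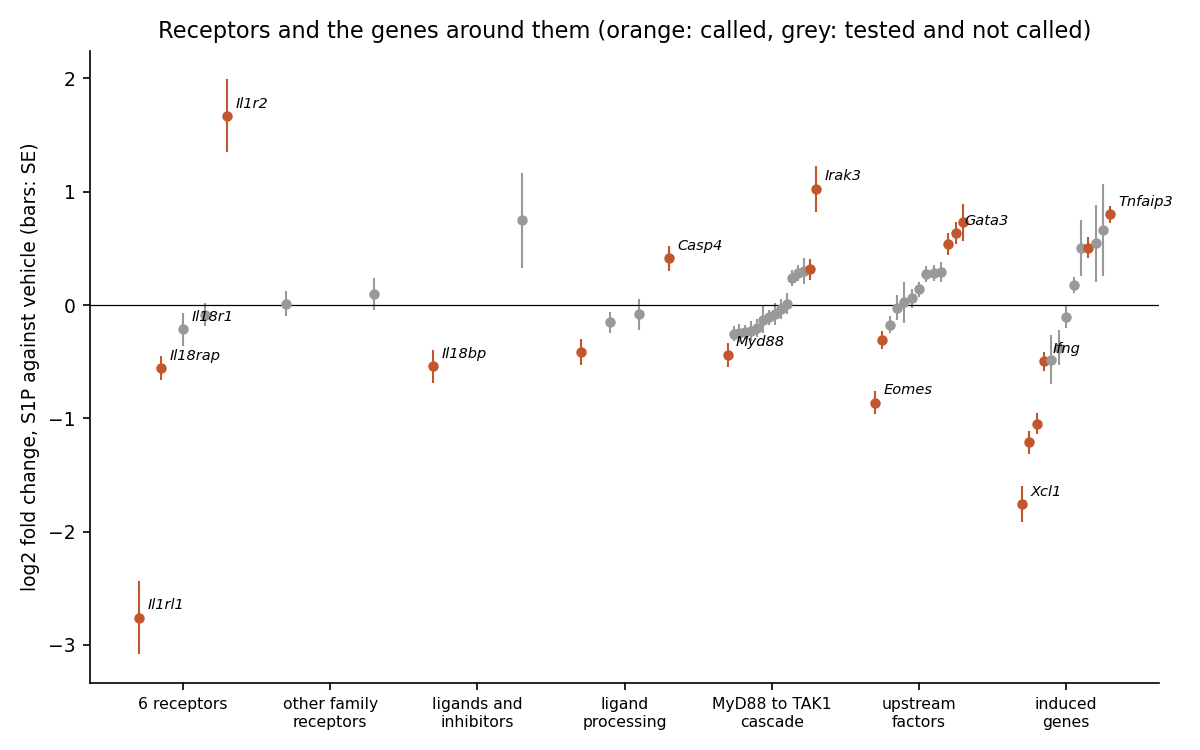
log2 fold change (S1P against vehicle) of the tested receptors and of the tested genes of the 6 lists; each point is a gene with its SE, orange where called. Il1rl1 at -2.76 is the lowest point of all groups shown and Il1r2 at 1.67 the highest.

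As a description of the same libraries, the fold changes of the receptors varied little with tool, scaling or filter and more with the choice of libraries. Over the fits that left out 1 library, Il18rap ran from -0.62 to -0.48 and Il1r2 from 1.48 to 1.81.

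**Figure D5:**
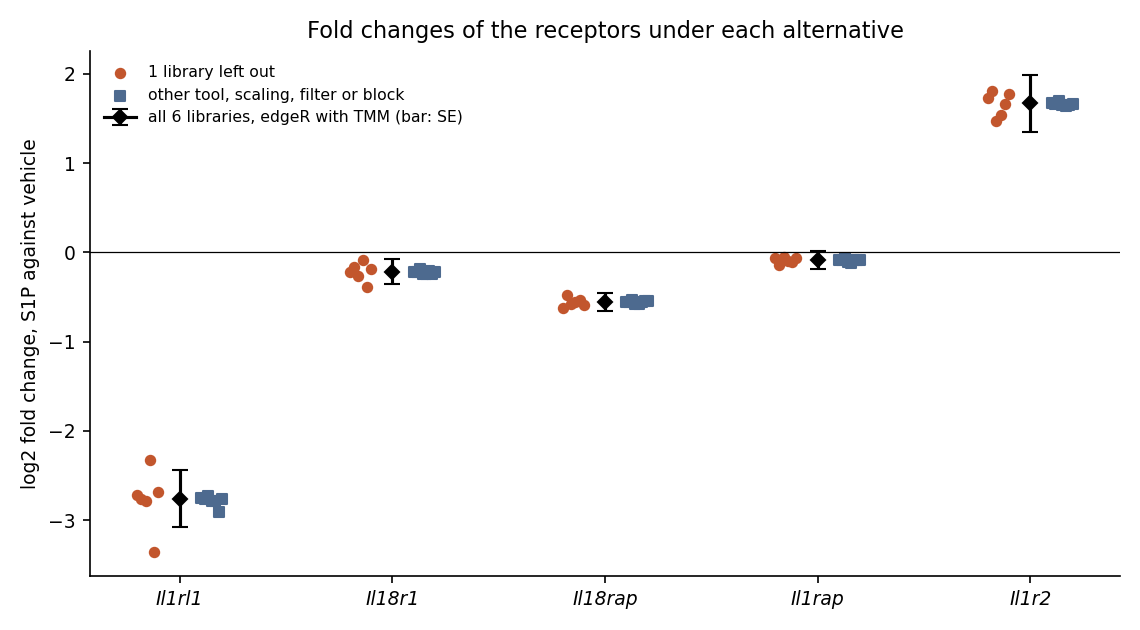
log2 fold change (S1P against vehicle) of the 5 tested receptors with all 6 libraries (diamond, bar SE), with 1 library left out (circles) and with another tool, scaling, filter or replicate block (squares). The circles of Il1rl1 span -3.36 to -2.33 and stay below the other receptors.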

How the data were processed

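RNA from 6 cultures was sequenced as strand-specific poly(A) libraries. The deposited values are raw read counts per Ensembl gene, made by the authors with Trim Galore, STAR and featureCounts on GRCm39 per the labels, whose processing notes also name DESeq2. Versions and the annotation release are not given in the sources used here. GENCODE vM39 symbols were matched to 56323 of 56941 identifiers, and every sample column was used.

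Counts were filtered with filterByExpr, scaled by TMM and tested with edgeR 4.0.16 (R 4.3.3) quasi-likelihood, all 6 libraries in 1 fit of group, and p-values of all 13299 tested genes were adjusted together (Benjamini-Hochberg). Calls required an adjusted p no greater than 0.05 and a change of 0.3 or more on the log2 scale. Alternatives used DESeq2 1.42.0, limma 3.58.1 (voom), other scalings, filters and thresholds, a replicate block, and each library left out. The fit was tested on simulated data. Limits from 0 counts cover counting error only, while the SD and SE also hold the spread between libraries, which for several genes exceeded counting error. No pair of libraries of the same group agreed within sampling noise.

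The members and lists were chosen with earlier results of these data known. Named were all receptors, each called gene and up to 2 most abundant uncalled genes of a list, neighbours within 500 kb and the 5 genes most like each receptor. For correlations, the prior count of log2 CPM was 2.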

Additional observations from a re-analysis of the deposited data

How the results depend on the processing

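These alternatives reuse the libraries with which the receptors were chosen, so they describe how the values depend on the processing and are no support for them. With at least 10 counts required in every sample, Il1rl1 and Il1r2 were not tested, which left 0 receptors called higher and 1 lower. At a log2 fold change of at least 1, 1 receptor was called higher and 1 lower. The lists then held 1 gene higher and 3 lower, and all tested genes gave 383 higher and 82 lower. With the adjusted p alone, the lists held 13 genes higher and 12 lower, beside 1949 higher and 1839 lower of all 13299 tested genes. Leaving out 1 library, the calls over all genes ran from 1158 to 1736 higher and from 961 to 1492 lower. Il18r1 ran from -0.39 to -0.08, and it met the call for all genes only without S1P replicate 2.

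Divided by the longest transcript, levels in CPM per kb were 1.03 for Il1rl1, 3.90 for Il18r1, 4.81 for Il18rap, 1.72 for Il1rap and 0.295 for Il1r2 in vehicle, and 3.26 for Il18rap, 1.62 for Il1rap and 0.934 for Il1r2 after S1P.

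Genes near 0 changed sign: Sigirr at -0.0085 with total count scaling and -0.011 with no filter, and between -0.11 and 0.15 with 1 library left out, as did Casp1 (-0.19 to 0.051), Gzmb (-0.17 to 0.023) and Cd4 (-0.020 to 0.18). The cause was not tested. With no filter the median of all genes was 0.16.

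With the replicate number as a block, 1697 genes were higher and 1423 lower, and Il1rl1 was at -2.77. The numbers were not taken as pairs, since same-numbered libraries deviated together with correlations of 0.12, -0.00598 and 0.0483, and vehicle replicates 2 and 3 correlated best with another number.

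Depth limits Il1r1 and 9 of the 11 ligands and soluble inhibitors, which did not pass the filter on low counts. With no filter, 1 of these, Il1rn, was called higher (log2 fold change 2.14, edgeR adjusted p = 0.0216).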
